A study of Mus musculus with 3 samples.

Results

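The genes described here encode the nuclear subunits of the oxidative phosphorylation system, the respiratory chain and ATP synthase of the mitochondrial inner membrane. They were taken by symbol from the protein-coding genes of the RefSeq annotation for mouse build mm10. The symbols were those that begin with Nduf and a letter a, b, c, s or v before a digit, with Uqcr, with Cox4 to Cox8 or with Atp5, together with Sdha, Sdhb, Sdhc, Sdhd, Cyc1 and Cycs. This gave 89 of 21900 genes. By complex, 38 belong to complex I, 4 to complex II, 9 to complex III, 20 to complex IV and 17 to complex V, and Cycs, which encodes the carrier cytochrome c, stands on its own. Peak positions carry no RNA measurement, so the cell labels were not checked against markers.

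RXRA binding was mapped with CUT&RUN: permeabilised cells receive an antibody, a tethered nuclease cuts around the bound protein, and the fragments set free are sequenced. There was 1 library from 10000 haematopoietic stem cells (HSC), sorted as Lin-cKit+Sca1+CD48-CD150+, and 2 from multipotent progenitors (MPP), of 50000 Lin-cKit+Sca1+CD150- cells each. All 3 came from bone marrow of C57BL/6 mice about 10 months old, pooled from 3 to 4 animals, with the genotype given as VavCre+ wild type and, in the growth protocol, as Rxrabfl/fl (WT). Vav-Cre acts in blood-forming cells, and what the WT label leaves of the floxed alleles is not spelled out. Every library was also exposed to bexarotene, an RXR agonist, for 1 h at a concentration the labels give as 1 mM, so no library shows binding without the drug. A library made with a control antibody was not analysed here. The labels do not say whether the MPP libraries came from separate pools, so agreement between them may be technical.

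As background, complex I takes electrons from NADH and complex II, succinate dehydrogenase, takes them from succinate. Complex III passes them through cytochrome c to complex IV, which reduces oxygen, and complex V uses the proton gradient to make ATP. RXRA is a nuclear receptor that binds DNA mostly as a partner of other nuclear receptors at repeated hexamers. The promoters of respiratory genes are known for sites of NRF1, of the ETS factor GABP, of YY1 and of estrogen-related receptors.

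A gene was called marked where a deposited peak overlapped a window of 1 kb on either side of one of its ends. In HSC, 13 of the 89 genes were marked, 14.6% (exact binomial 95% interval 8.01 to 23.7), beside 8.21% of all protein-coding genes. In MPP replicate 1 the count was 61, 68.5% (57.8 to 78.0), beside 41.2% of all genes. In MPP replicate 2 it was 57, 64.0% (53.2 to 73.9), beside 36.0% of all genes. The share of subunit genes was thus above that of all genes in each library, and in HSC the lower bound of the interval fell just short of the background. Intervals cover counting error only, and with 1 HSC library there is no test between the cell types.

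The HSC list holds 4047 peaks and the MPP lists 29848 and 19570. Depth, read from the background under the peaks, was 4.75 times the HSC level in MPP replicate 1 and 1.79 times in MPP replicate 2. The smallest pileup called stood at 8.28 times background in HSC, 3.48 times in MPP replicate 1 and 5.55 times in MPP replicate 2. A gene without an HSC peak may therefore carry a signal that this depth could not call, and binding by cell type and by depth cannot be told apart. Among subunit genes marked in MPP but not in HSC, 18 of 51 in replicate 1 and 41 of 44 in replicate 2 had a pileup over background above the lowest HSC call. That cut is the lowest call of any HSC peak, 8.28, below the lowest at a subunit gene, 9.94. The MPP values are those of peaks already called, and the same count over all genes is not given here. Whether depth accounts for the missing HSC peaks was not tested. With the MPP lists cut to the 4047 peaks of highest fold in each, 19 subunit genes were marked in each (21.3%, beside 8.83% and 10.1% of all genes).

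All 13 genes marked in HSC were also marked in MPP replicate 2. In all 3 libraries 10 genes were marked (11.2%, beside 5.83% of all genes), namely Ndufa5, Ndufa12, Ndufb5, Ndufb6, Sdhc, Uqcrq, Ndufa4, Cox7a1, Cox7c and Atp5j. Another 3, Ndufs8, Cox7a2l and Atp5g1, lacked only a peak in MPP replicate 1 (1.74% of all genes had that pattern), and no subunit gene lacked only one in MPP replicate 2 (0.338% of all genes). No subunit gene was marked in HSC alone, as was the case for 0.297% of all genes. Both MPP libraries and not HSC marked 35 genes (39.3%, beside 23.1%). MPP replicate 1 alone marked 16 (18.0%, beside 12.0%) and MPP replicate 2 alone 9 (10.1%, beside 5.32%). The remaining 16 were marked in no library (18.0%, interval 10.6 to 27.5, beside 51.4%).

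**Figure D1:**
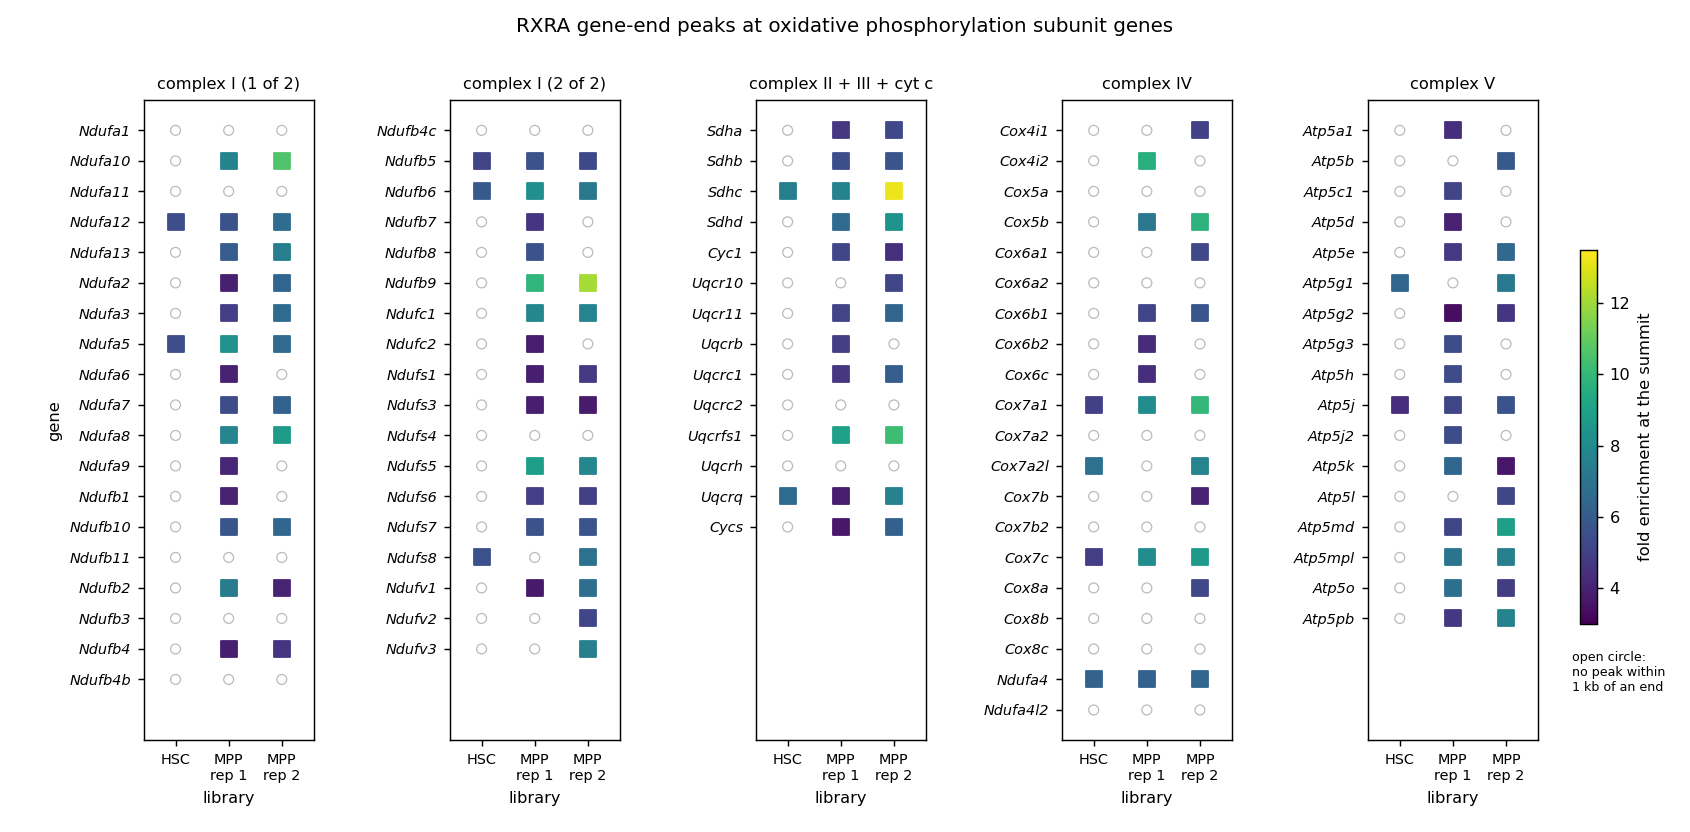
Fold enrichment (colour scale) of the strongest RXRA peak within 1 kb of an end of the subunit genes shown, by complex, in the 3 libraries; an open circle marks a gene with no such peak. HSC has the fewest filled squares, and the highest fold is that of Sdhc in MPP replicate 2, 13.2.

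The starts of 8 genes show what lies under or beside these peaks. Each sequence runs from 150 bases before to 20 bases after a RefSeq start, 5′ to 3′ on the gene's strand, in build GRCm38.p6, and lower case holds whatever was not singled out. The first 3 were marked in all 3 libraries: Ndufa5 (chr6:24527671-24527840, minus strand, capitals for an NRF1 match), Atp5j (chr16:84834957-84835126, minus, capitals for a YY1 and then an ETS match) and Cox7a1 (chr7:30184021-30184190, plus, capitals for CCAAT on the opposite strand).
Ndufa5: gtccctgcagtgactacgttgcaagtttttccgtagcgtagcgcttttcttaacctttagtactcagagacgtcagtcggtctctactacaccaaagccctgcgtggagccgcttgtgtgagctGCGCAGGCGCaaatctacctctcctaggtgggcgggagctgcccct
Atp5j: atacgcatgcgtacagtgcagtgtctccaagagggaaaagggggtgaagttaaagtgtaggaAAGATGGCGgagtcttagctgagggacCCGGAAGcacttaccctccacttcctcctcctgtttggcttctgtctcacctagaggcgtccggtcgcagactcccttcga
Cox7a1: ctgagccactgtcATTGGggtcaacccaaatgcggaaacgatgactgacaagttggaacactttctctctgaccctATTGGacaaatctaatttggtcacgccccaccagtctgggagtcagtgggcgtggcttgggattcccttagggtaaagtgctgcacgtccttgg
Cox7c (chr13:86046776-86046945, minus) was also marked in all 3 and holds none of the NRF1, ETS, YY1 or estrogen-related receptor motifs.
Cox7c: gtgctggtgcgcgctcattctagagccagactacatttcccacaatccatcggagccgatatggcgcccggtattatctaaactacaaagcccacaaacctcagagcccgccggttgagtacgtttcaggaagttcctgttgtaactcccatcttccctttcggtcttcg
Sdha (chr13:74350221-74350390, minus) and Ndufb4 (chr16:37654349-37654518, minus) were marked in both MPP libraries and hold repeated NRF1 matches, in capitals; the middle capitals of Ndufb4 are an AAGGTCA.
Sdha: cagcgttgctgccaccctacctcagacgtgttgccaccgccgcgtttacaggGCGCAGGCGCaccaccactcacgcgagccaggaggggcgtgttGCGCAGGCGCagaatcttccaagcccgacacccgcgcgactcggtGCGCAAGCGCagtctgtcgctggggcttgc
Ndufb4: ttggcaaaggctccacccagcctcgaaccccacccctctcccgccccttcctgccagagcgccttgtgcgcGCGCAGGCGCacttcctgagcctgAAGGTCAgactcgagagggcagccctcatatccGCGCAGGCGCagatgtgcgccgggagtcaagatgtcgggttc
Ndufa11 (chr17:56717612-56717781, plus) and Ndufa1 (chrX:37191219-37191388, minus) were marked in no library; the capitals of Ndufa11 are an NRF1 match, and Ndufa1 has none.
Ndufa11: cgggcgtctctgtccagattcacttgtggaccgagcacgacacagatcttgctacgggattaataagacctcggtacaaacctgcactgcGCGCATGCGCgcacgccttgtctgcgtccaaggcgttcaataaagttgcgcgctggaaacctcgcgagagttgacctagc
Ndufa1: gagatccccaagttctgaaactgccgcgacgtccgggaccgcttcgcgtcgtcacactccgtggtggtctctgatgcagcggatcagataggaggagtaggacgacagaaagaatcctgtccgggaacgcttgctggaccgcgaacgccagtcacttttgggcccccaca

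Complex I, the NADH dehydrogenase, had 5 of its 38 genes marked in HSC (13.2%), 28 in MPP replicate 1 (73.7%, interval 56.9 to 86.6) and 25 in MPP replicate 2 (65.8%, 48.6 to 80.4), beside 8.21%, 41.2% and 36.0% of all genes. Its marked genes had median folds of 5.50, 5.68 and 6.59 in HSC and MPP replicates 1 and 2, with ranges of 5.12 to 5.92, 3.73 to 9.87 and 3.76 to 12.1. In HSC the 5 were Ndufa5, Ndufa12, Ndufb5, Ndufb6 and Ndufs8, the first 4 for accessory subunits and the last for an iron-sulfur core subunit.

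The strength of a peak is given as the authors' fold enrichment at the summit, and as the pileup, the number of fragments stacked there, which was solved from the deposited fold and p with an exact Poisson 95% interval. At the accessory gene Ndufa5 the fold was 5.50 in HSC on a pileup of 8 (3.45 to 15.8). It was 8.27 on 31 (21.1 to 44.0) in MPP replicate 1 and 6.59 on 13 (6.92 to 22.2) in MPP replicate 2. The 3 peaks overlap one another, and they also lie within 1 kb of an end of Asb15. The accessory gene Ndufa12 had folds of 5.50, 5.69 and 6.73 in HSC and MPP replicates 1 and 2, on pileups of 8, 21 and 13. At Ndufb5 the folds were 5.12, 5.69 and 5.32 in the same order, on pileups of 8, 21 and 12, and the peaks are shared with Mrpl47, which encodes a mitochondrial ribosomal protein. HSC folds at these genes lay below those of both MPP libraries, and the pileups were lower too in HSC, the shallowest library. The fold adds 1 to pileup and to background, and pileup over the lowest background of the library ran the other way. It was 13.3 in HSC at each of these genes. In MPP replicates 1 and 2 it was 10.8 and 12.0 at Ndufa5, 7.32 and 12.0 at Ndufa12, and 7.32 and 11.1 at Ndufb5.

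Ndufb6 differed in where its strongest peak lay. In HSC the peak was at the start, with a fold of 5.92 on a pileup of 9 (4.12 to 17.1). In both MPP libraries the start was marked too, with a fold of 5.88 in each, but the strongest peak, with folds of 8.17 and 7.19, lay near the other end of the gene. There the summits were 9596 and 9669 bp past the start, next to ends of Topors and Smim27. Ndufs8 had folds of 5.61 in HSC and 6.93 in MPP replicate 2 on pileups of 8 and 22, shared with Aldh3b1, and no peak in MPP replicate 1, the deepest library.

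Of the complex I genes marked in both MPP libraries, Ndufb9, an accessory gene, ranked highest by the worse of its 2 fold ranks. Its folds were 9.87 in MPP replicate 1 and 12.1 in MPP replicate 2, on pileups of 38 (26.9 to 52.2) and 32 (21.9 to 45.2), at chr15:58933582-58934008 and chr15:58933526-58933934. These lie at the 99.2 and 99.0 percentiles of all peaks of their library, and Tatdn1 shares them. Ndufa10 followed with folds of 7.71 and 10.6, then Ndufa8 with 7.73 and 8.77 and Ndufs5 with 8.79 and 7.88. Neither Ndufb9, Ndufa10, Ndufa8 nor Ndufs5 had an HSC peak within 1 kb, so the 4 complex I genes strongest by this rank in MPP were not among those called in HSC. The peak of Ndufa8 is also within 1 kb of Morn5.

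Complex II is small, and all 4 of its genes were marked in both MPP libraries (interval 39.8 to 100%, beside 28.9% of all genes). In HSC 1 of the 4 was marked (interval 0.631 to 80.6%, which holds the 8.21% of all genes). Sdhc, which encodes a membrane anchor of the enzyme, was also marked in HSC, with a fold of 7.48 on a pileup of 11 (5.49 to 19.7). That was the highest HSC fold of any subunit gene. In MPP its folds were 7.61 on 30 (20.2 to 42.8) and 13.2 on 29 (19.4 to 41.6), the latter at chr1:171150420-171150785 and ranked 117 of 19570 peaks. Sdhd, the other membrane anchor, had folds of 6.65 and 8.35 and shares its peaks with Timm8b, a gene of mitochondrial protein import. Sdhb, the iron-sulfur subunit, had folds of 5.53 and 5.73. Sdha, the flavoprotein with the 3 NRF1 matches in its sequence, had the lowest, 4.65 and 5.29, with the peaks shared with Ccdc127. None of these but Sdhc had an HSC peak within 1 kb.

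In complex III, the cytochrome bc1 complex, 1 of 9 genes was marked in HSC and 6 in each MPP library (66.7%, interval 29.9 to 92.5, which holds the shares of all genes in both). Uqcrfs1 encodes the Rieske iron-sulfur protein. Its folds were 8.93 on a pileup of 38 (26.9 to 52.2) in MPP replicate 1 and 10.2 on 25 (16.2 to 36.9) in MPP replicate 2, at chr13:30545075-30545546 and chr13:30545211-30545555. It had no HSC peak within 1 kb. The gene with an HSC peak was Uqcrq, a small subunit, with folds of 6.62, 3.82 and 7.61 in HSC and MPP replicates 1 and 2. Of the genes marked in all 3 libraries, Uqcrq and Ndufa4 had a lower fold at the strongest peak in MPP replicate 1 than in HSC. At the start of Ndufb6 the folds were 5.92 in HSC and 5.88 in MPP replicate 1. Pileup over the lowest background was lower in MPP replicate 1 than in HSC at every gene marked in all 3. It was 5.92 against 19.9 at Uqcrq and 11.5 against 11.6 at Cox7a1. The Uqcrq pileups were 12, 17 and 24, and Gdf9 shares all 3 peaks. Uqcr11, also a small subunit, had folds of 5.11 and 6.38 in MPP. Uqcrc1, a core protein, had 4.65 and 6.09, and Cyc1, which encodes cytochrome c1, had 5.21 and 4.45. Uqcrb was marked in MPP replicate 1 alone and Uqcr10 in MPP replicate 2 alone, and Uqcrh and the core gene Uqcrc2 in none. Cycs had folds of 3.62 on a pileup of 13 and 6.16 on 15, and its nearest HSC peak lay 30085 bp away.

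Complex IV, cytochrome c oxidase, had 4 of 20 genes marked in HSC, 8 in MPP replicate 1 (40.0%, interval 19.1 to 63.9) and 10 in MPP replicate 2 (50.0%, 27.2 to 72.8). In MPP replicate 1 that share is close to the 41.2% of all genes. In MPP replicate 2 it is above the 36.0% of all genes and the 20.0% of HSC is above 8.21%, but both intervals hold those values. This complex holds all 8 genes listed here as tissue-restricted isoforms: Cox4i2, Cox6a2, Cox6b2, Cox7a1, Cox7b2, Cox8b, Cox8c and Ndufa4l2. Textbooks name them for muscle, lung or testis, except Ndufa4l2, which was listed with them. Of the 8, 1, 3 and 1 were marked in HSC and MPP replicates 1 and 2. Of the 12 other complex IV genes, 3, 5 and 9 were marked in the same order. Cox5a and Cox7a2, among those 12, count as unmarked in all these counts, though both MPP libraries held a peak at their starts (described below). Over all complexes, the 81 genes outside the isoform list were marked in 14.8%, 71.6% and 69.1% of cases.

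The restricted isoform marked in all 3 libraries was Cox7a1, the heart and muscle form of a small subunit. Its folds were 4.99 on a pileup of 7 (2.81 to 14.4) in HSC, 8.03 on 33 (22.7 to 46.3) in MPP replicate 1 and 10.0 on 23 (14.6 to 34.5) in MPP replicate 2. All 3 peaks span the start printed above, and their summits lay upstream of it, at -136, -100 and -83 bp in HSC and MPP replicates 1 and 2. Cox4i2, the isoform named for lung and low oxygen, showed no such repeat. It had a fold of 9.64 on a pileup of 43 (31.1 to 57.9) in MPP replicate 1 and no peak within 1 kb in MPP replicate 2, where the nearest was 6634 bp away. Cox6b2, a testis form, had a fold of 4.28 in MPP replicate 1 alone. The other 5 isoforms were unmarked in every library.

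Among the widely expressed genes of complex IV, Cox7c had folds of 4.89, 8.01 and 8.65 in HSC and MPP replicates 1 and 2, on pileups of 7, 30 and 17. Ndufa4, once counted with complex I and now placed in complex IV, had 6.26, 6.20 and 6.41 on pileups of 10, 23 and 15. Its folds were thus nearly level over the 3 libraries, while pileup over the lowest background was 16.6, 8.01 and 13.9 in the same order. The peaks of Ndufa4 are shared with Phf14. Cox7a2l encodes a factor that joins complexes III and IV into supercomplexes. It had folds of 6.86 in HSC and 7.75 in MPP replicate 2 and was unmarked in MPP replicate 1. Cox5b, which encodes a zinc-binding subunit, was marked in MPP only, with folds of 7.17 and 9.75.

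In complex V, the ATP synthase, 17 of 17 genes were marked in at least 1 library (interval 80.5 to 100%, beside 48.6% of all genes), as were the 4 of complex II. By library the counts were 2 for HSC, 14 for MPP replicate 1 (82.4%) and 11 for MPP replicate 2 (64.7%), beside 8.21%, 41.2% and 36.0% of all genes. Atp5g1, a gene for the membrane ring subunit c, had folds of 6.45 in HSC and 7.26 in MPP replicate 2, on pileups of 10 and 17. The other genes for subunit c were Atp5g2, marked in both MPP libraries, and Atp5g3, marked in MPP replicate 1. Atp5j, which encodes coupling factor 6, had the lowest HSC fold of the 13, 4.32 on a pileup of 6 (2.20 to 13.1), then 5.17 and 5.67 in MPP. Its peaks are shared with Gabpa, the gene of the DNA-binding subunit of GABP. For the small membrane subunits the folds in MPP replicates 1 and 2 were 7.05 and 7.52 at Atp5mpl and 5.16 and 8.87 at Atp5md, the latter shared with Pdcd11. Atp5e, the gene of the epsilon subunit, had 4.76 and 6.49, shared with Prelid3b. Atp5a1, for the alpha subunit, was marked in MPP replicate 1 alone. Atp5b, for the catalytic beta subunit, was marked in MPP replicate 2 alone.

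**Figure D2:**
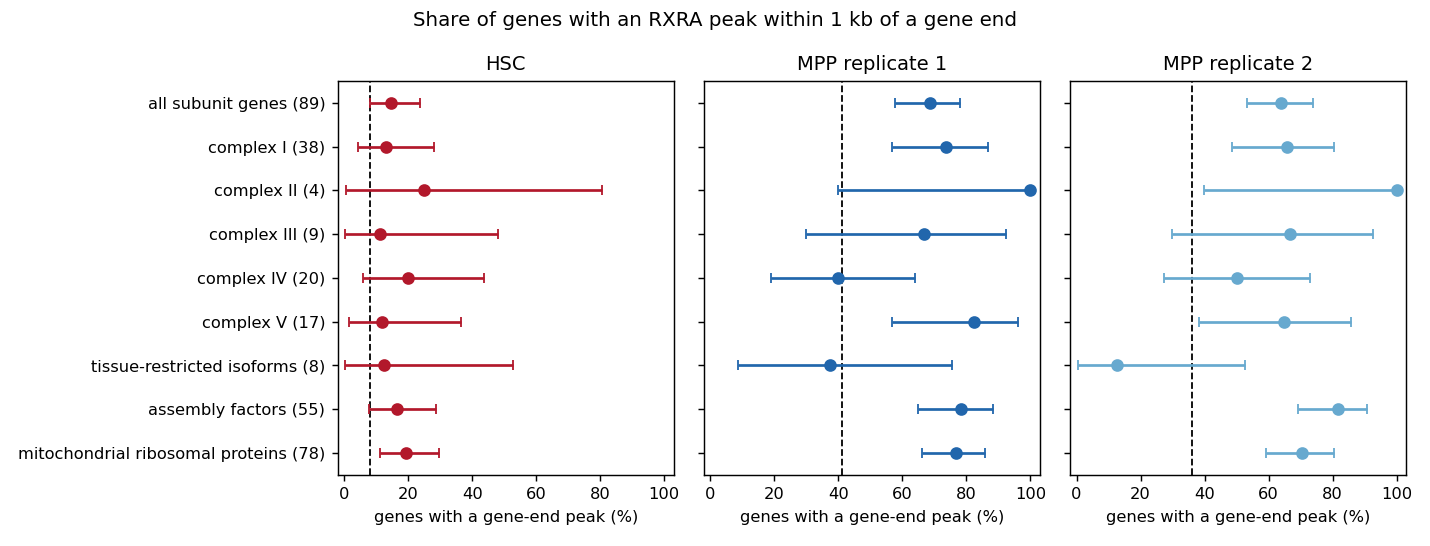
Share of genes (%) with an RXRA peak within 1 kb of a gene end, by complex and for related gene lists, in each library; bars are exact binomial 95% intervals, numbers in brackets are gene counts, and the dashed line is the share of all protein-coding genes. All 89 subunit genes together stand at 14.6% for HSC, 68.5% for MPP replicate 1 and 64.0% for MPP replicate 2.

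The folds of the 45 genes marked in both MPP libraries correlated loosely between the libraries, with a Pearson r of 0.56 and a Spearman rho of 0.54 on log2 fold. This is a description over genes, which are not independent replicates and share their 2 libraries. The median fold at the marked subunit genes was 5.61, 5.40 and 6.38 in HSC and MPP replicates 1 and 2, beside 5.50, 4.86 and 6.14 at all marked genes. Set against every peak of its library, the median subunit peak stood at the 56.0, 75.7 and 66.7 percentile, beside 49.7, 63.5 and 61.2 for all marked genes. In the top 10% of peaks were 1 of 13, 17 of 61 and 9 of 57 subunit genes (7.69%, 27.9% and 15.8%, beside 5.84%, 16.4% and 13.4%). Subunit genes with an HSC peak had median folds of 6.91 (n = 10) and 7.19 (n = 13) in MPP replicates 1 and 2, beside 5.16 (n = 51) and 6.13 (n = 44) for those without one. The ranges overlap: 3.82 to 8.27 against 3.36 to 9.87 in replicate 1, and 5.32 to 13.2 against 3.65 to 12.1 in replicate 2.

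**Figure D3:**
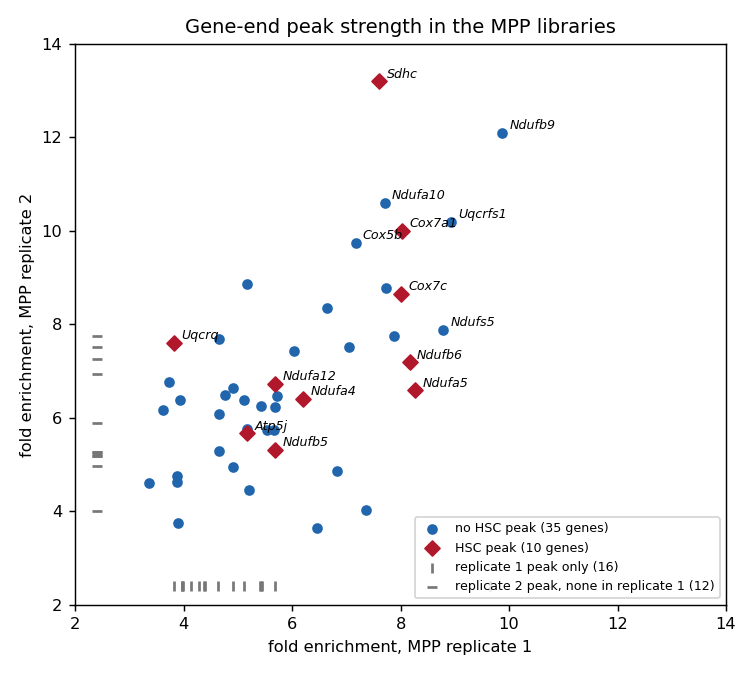
Fold enrichment at the strongest gene-end peak in MPP replicate 1 (horizontal) and replicate 2 (vertical) for the 45 subunit genes marked in both, with red diamonds for genes also marked in HSC; ticks along each axis are genes marked in that replicate and not in the other. Sdhc and Ndufb9 lie highest in replicate 2, at 13.2 and 12.1.

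Of the 13 subunit genes marked in HSC, 10 were marked in MPP replicate 1 (76.9%, beside 75.1% of all genes marked in HSC) and 13 in MPP replicate 2 (beside 92.3%). Where 2 libraries marked the same subunit gene, a gene-end peak of one overlapped one of the other by at least 1 bp in every case. This held for 45 of 45 genes between the MPP libraries, 10 of 10 between HSC and MPP replicate 1, and 13 of 13 between HSC and MPP replicate 2. Over all genes the shares were 95%, 90.1% and 97.5%.

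RefSeq starts with a strand were at hand for 71 of the 89 genes. A peak lay within 1 kb of such a start at 11 of the 71 in HSC (15.5%, beside 8.57% of 17492 genes), 51 in MPP replicate 1 (71.8%, beside 42.1%) and 52 in MPP replicate 2 (73.2%, beside 38.0%). For 57 of them the start lies at least 3 kb from the other end of the gene, so that start and end can be told apart. The start was marked at 8, 43 and 42 of these 57 in HSC and MPP replicates 1 and 2, beside 9.77%, 47.4% and 42.8% of 14506 genes. The other end was marked at 0, 1 and 2, or 0, 1.75% and 3.51%, beside 0.696%, 5.54% and 3.43% of 14506 genes. The count of 0 in HSC has an upper bound of 6.27% (exact binomial, 95%). The other-end genes were Ndufb6 in both MPP libraries and Ndufa8 in MPP replicate 2. The gene-end peak of Atp5d in MPP replicate 1, with a fold of 3.97, sat at neither: its summit lay -2956 bp from the RefSeq start, and it is shared with Cbarp.

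Summits were close to the starts. In MPP replicate 1 the median summit lay at -9 bp, where negative is upstream (quartiles -45 to 34.5 bp, n = 51), and 40 of 51 lay within 100 bp of the start (78.4%, beside 56.7% of all marked starts). In MPP replicate 2 the median was -42 bp (-69 to 9.25, n = 52), and 39 of 52 were within 100 bp (75.0%, beside 53.9%). In HSC the median was -99 bp (-162 to -16, n = 11), and 5 of 11 were within 100 bp (45.5%, beside 41.4%). At Cox7c the summits fell 11, -2 and 4 bp from the start in HSC and MPP replicates 1 and 2, inside the sequence printed above. At Uqcrfs1 they fell -17 and -3 bp from it in MPP, and at Ndufa10 -12 and -42 bp.

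**Figure D4:**
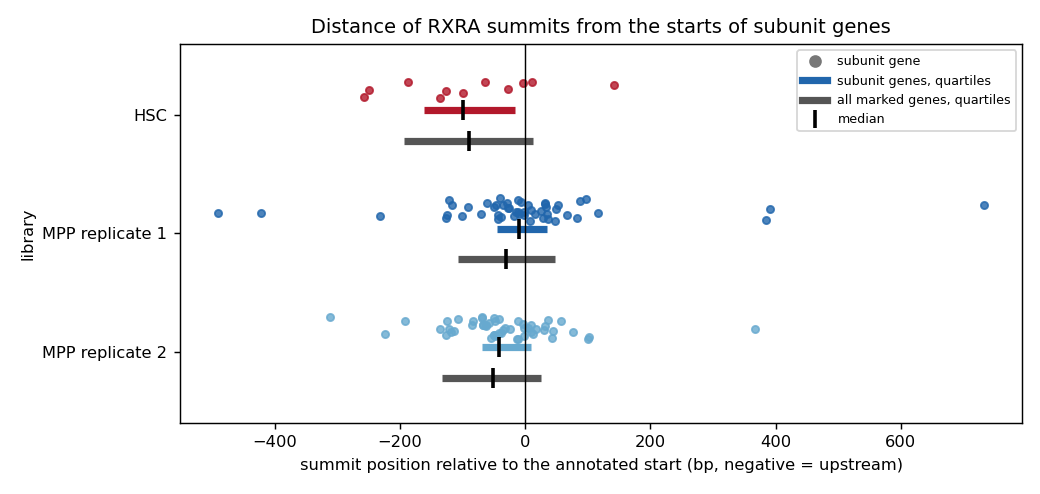
Distance in bp of each subunit gene's start peak summit from the RefSeq start (negative is upstream), 1 point per gene; thick bars span the quartiles of subunit genes (coloured) and of all marked genes (grey), with a black line at the median. Medians of subunit genes lie at -99, -9 and -42 for HSC and MPP replicates 1 and 2.

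The gene-end window missed some start peaks. Cox5a and Cox7a2, widely expressed complex IV genes counted above as unmarked, have a RefSeq start well inside the listed gene, and both MPP libraries held a peak there. At Cox5a the folds were 7.60 on a pileup of 33 and 7.37 on 18, and at Cox7a2 they were 7.49 on 28 and 7.30 on 16. Atp5d and Atp5g3 had such a peak in MPP replicate 2, with folds of 5.06 and 5.77. In MPP replicate 1 the Atp5d start also held a peak, with a fold of 4.96 on a pileup of 26. Its summit lay at -27 bp, apart from the gene-end peak shared with Cbarp. Atp5g3 also sits at the 1 kb limit: its peak edge was 966 bp from the gene end in MPP replicate 1, inside the window, and 1001 bp in replicate 2, outside it. Others just outside were Ndufb7 at 1540 bp and Uqcrh at 1680 bp in MPP replicate 2, and Ndufb4b at 1837 bp in MPP replicate 1. With the limits so placed, 14 of the 89 genes had no gene-end peak in any library, and no peak at a RefSeq start where one was at hand. The same count over all genes is not given here.

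Those 14 were the complex I genes Ndufb3, Ndufs4, Ndufa11, Ndufb11, Ndufa1, Ndufb4b and Ndufb4c, the complex III genes Uqcrh and Uqcrc2, and the isoforms Cox7b2, Cox6a2, Cox8b, Cox8c and Ndufa4l2. No RefSeq start was at hand for Ndufb4c, Uqcrc2, Cox6a2, Cox8c and Ndufa4l2, so a start peak could not be looked for there. Ndufa4l2 held a summit inside the gene, over 1 kb from both ends, in MPP replicate 1. Ndufb4b and Ndufb4c are copies of Ndufb4, whose own start was marked in both MPP libraries with folds of 3.88 and 4.63. Ndufb11, Ndufa1 and Cox7b are the subunit genes on chromosome X, and of the 3 only Cox7b was marked, in MPP replicate 2. Few genes of that chromosome were marked: 2.38%, 12.5% and 14.9% in HSC and MPP replicates 1 and 2. Ndufs4, Ndufa1 and Cox7b2 had no summit within 50 kb in any library. The nearest peak to Ndufs4 was 69144 bp away in MPP replicate 2, and the nearest to Ndufa1 was 56862 bp away in MPP replicate 1.

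Subunit genes are short, with a median length of 7082 bp beside 17146 bp for all protein-coding genes and a range from 471 to 105383 bp. A summit lay inside the gene at 4 of the 89 in HSC (4.49%, beside 7.91% of all genes), 37 in MPP replicate 1 (41.6%, beside 42.4%) and 25 in MPP replicate 2 (28.1%, beside 32.2%). For the 65 subunit genes of 10 kb or less the shares were 4.62%, 40.0% and 26.2%, beside 2.52%, 20.3% and 14.7% of all genes of that size. Over 1 kb from both ends, 1, 8 and 5 subunit genes held a summit (1.12%, 8.99% and 5.62%, beside 4.97%, 27.1% and 19.2%). In both MPP libraries these included Atp5g3, Cox5a, Cox7a2 and Atp5d, where an inner summit is the start peak named above. Within the gene or 50 kb around it, a summit lay at 45 genes in HSC (50.6%, beside 33.9%), 85 in MPP replicate 1 (95.5%, beside 78.7%) and 83 in MPP replicate 2 (93.3%, beside 72.7%).

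Many subunit genes have a close neighbour, so that a peak cannot be given to 1 gene. The end of another protein-coding gene lay within 1 kb of 50 of the 89 (56.2%), beside 24.8% of all genes. With such a neighbour, 18.0%, 70.0% and 64.0% were marked in HSC and MPP replicates 1 and 2, beside 14.5%, 59.8% and 57.9% of all genes with a neighbour. Without one, 4, 26 and 25 of 39 were marked (10.3%, 66.7% and 64.1%), beside 6.12%, 35.1% and 28.7%. In MPP the subunit genes without a neighbour were thus marked about as often as those with one, while over all genes the shares differed. The strongest peak was itself shared with another gene's window at 7 of 13, 28 of 61 and 25 of 57 genes. The same count over all marked genes is not given here, so whether sharing was frequent for marked genes cannot be read from it. Uqcrfs1, Ndufa10, Ndufs5, Cox7a1, Cox7c and Cox5b were among the strongly marked genes whose peaks were not shared.

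Motifs were searched on both strands of 76 RefSeq windows of 71 subunit genes, from 250 bases before to 50 after the start, and in 21263 windows of all protein-coding genes. The NRF1 motif, GCGCA then any base then GCGC, was in 18 windows (23.7%, exact binomial 95% interval 14.7 to 34.8), beside 6.38% of all. The ETS motif CCGGAAG was in 22.4% (13.6 to 33.4), beside 11.6%, and the YY1 motif AAGATGGCG in 9.21% (3.78 to 18.1), beside 1.83%. The SP motif GGGCGG was in 39.5%, beside 46.2%, the E-box CACGTG of MYC and MAX in 9.21%, beside 7.84%, and CCAAT, the NFY motif, in 42.1%, beside 38.2%. Base composition was close, with a median GC content of 57.5% beside 56.3%. Intervals of the NRF1, ETS and YY1 shares thus lie above the share of all windows, and those of the SP motif (28.4 to 51.4), the E-box and CCAAT hold it.

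**Figure D5:**
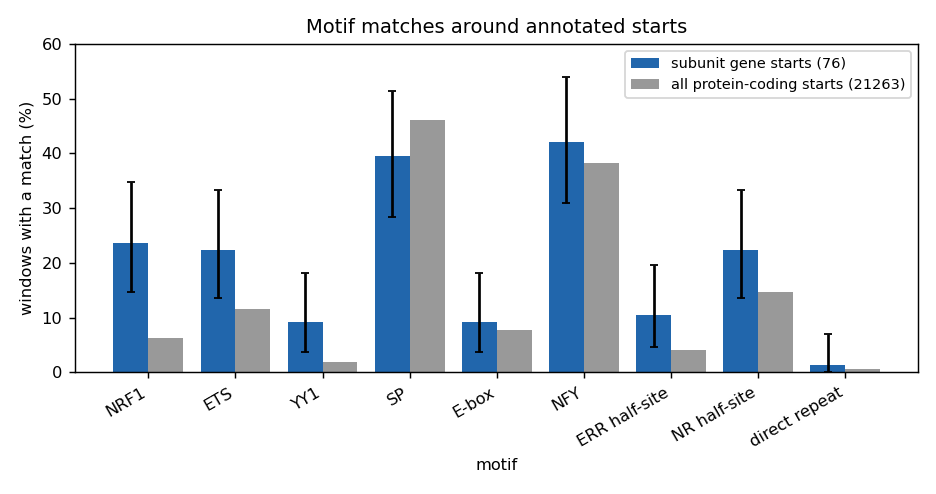
Share of start windows (%) with a match to each motif, for subunit genes (blue, 76 windows, exact binomial 95% intervals) and all protein-coding genes (grey, 21263 windows); ERR and NR are estrogen-related and nuclear receptor hexamers. The NRF1 motif stands at 23.7% against 6.38%.

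Of the motifs nuclear receptors bind, AGGTCA was in 22.4% of subunit windows (13.6 to 33.4), beside 14.7% of all. Its extended form AAGGTCA, which estrogen-related receptors bind and which is part of the first count, was in 10.5% (4.66 to 19.7), beside 4.08%. A direct repeat was counted where 2 hexamers followed each other with 0 to 5 bases between, the arrangement known for RXR dimers. A hexamer could read AGGTCA, its first-base variant GGGTCA, its third-base variant AGTTCA, or the variant at both places, GGTTCA. Such a repeat was found in 1 of 76 windows (1.32%, beside 0.607% of all). That was Ndufs6, an accessory gene of complex I, at chr13:73328455-73328467 on the minus strand in GRCm38.p6, 15 bases after the start, with both hexamers in capitals and 1 base between.
Ndufs6: GGGTCAaGGGTCA
Ndufs6 was marked in both MPP libraries with folds of 4.91 and 4.94 on pileups of 18 and 11, and Mrpl36 shares the peak. A match describes letters only and says nothing of what is bound.

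Set beside the peaks, the NRF1 motif was in 16 marked windows of 18 in MPP replicate 1 and 14 of 18 in MPP replicate 2, and windows without it were marked at 40 and 42 of 58. Over all genes, windows with the NRF1 motif were marked more often than the rest, at 63.5% beside 38.7% in MPP replicate 1, 65.3% beside 34.1% in MPP replicate 2 and 15.0% beside 7.64% in HSC. This was not particular to NRF1. In the same order, windows with the SP motif stood at 57.9% beside 25.1%, 53.3% beside 21.3% and 12.5% beside 4.34%. Those with the ETS motif stood at 68.8% beside 36.5%, 68.6% beside 31.8% and 15.3% beside 7.16%. Shares were also higher with YY1 and with the E-box in each library. With CCAAT they were higher in MPP replicate 2 and HSC and lower in MPP replicate 1. Among subunit genes in HSC, 2 of the 18 windows with the NRF1 motif were marked and 11 of the 58 without it. Windows with AGGTCA were marked at 12 and 14 of 17 in MPP replicates 1 and 2, and those without it at 44 and 42 of 59. Over all genes, windows with AGGTCA were marked less than the rest: 31.8% beside 41.7% in MPP replicate 1, 27.5% beside 37.6% in MPP replicate 2 and 5.72% beside 8.52% in HSC. Subunit windows with AAGGTCA were marked at 7, 8 and 0 of 8 in the same order, and those without it at 49, 48 and 13 of 68. Over all genes, windows with AAGGTCA stood at 27.6% beside 40.8%, 24.9% beside 36.6% and 5.19% beside 8.23%. The Ndufa11 window printed above is one with an NRF1 match and no peak, and that of Cox7c is one with peaks in all 3 libraries and neither an NRF1 nor an AGGTCA match. So marked and unmarked starts both occurred with and without these letters.

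Other genes of the pathway were taken from lists that hold none of the 89. Of 55 genes for assembly factors, which build the complexes, 9, 43 and 45 were marked in HSC and MPP replicates 1 and 2 (16.4%, 78.2% and 81.8%, beside 8.21%, 41.2% and 36.0% of all genes). Marked in all 3 were Bcs1l, which inserts the Rieske protein into complex III, Lyrm7, which acts on the same protein, the complex I factors Ndufaf4 and Timmdc1, and the complex IV factors Cox18 and Cox19. Timmdc1 had folds of 5.46, 10.3 and 8.18 in HSC and MPP replicates 1 and 2, and Cox19 had 5.61, 8.72 and 10.2. Atpaf1, Atpaf2, Uqcc2 and Sdhaf2 were marked in none. This list also holds Ndufab1, the acyl carrier subunit of complex I, whose symbol is outside those used for the 89; it had folds of 8.12 and 6.07 in MPP and no HSC peak within 1 kb. Of 78 genes for mitochondrial ribosomal proteins, 15, 60 and 55 were marked (19.2%, 76.9% and 70.5%, against the same shares of all genes). The intervals of both lists overlap those of the subunit genes in every library.

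Of 12 genes for regulators of respiratory genes, 4 were marked in HSC and 8 in each MPP library, where 8.21%, 41.2% and 36.0% of all genes were marked. Tfam and Tfb2m, factors of mitochondrial transcription, were marked in all 3, with folds of 6.18, 7.59 and 8.66 at Tfam and 5.92, 4.34 and 9.43 at Tfb2m in HSC and MPP replicates 1 and 2. Esrra, the gene of an estrogen-related receptor, had 5.44, 6.33 and 7.50. Gabpa had the 3 peaks that it shares with Atp5j. Nrf1 and the coactivator gene Pprc1 were marked in both MPP libraries, and Gabpb1 and Yy1 in none. Of the coactivator genes, Ppargc1a and Ppargc1b were marked in MPP replicate 1 alone, with folds of 3.77 and 3.86.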

How the data were processed

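RXRA CUT&RUN of 1 HSC and 2 MPP libraries was analysed from the deposited peak lists, 1 per library in 10 columns, so replicates were called separately. Per the submitters' processing notes the build was mm10, and MACS2 2.1.4, Bowtie2 2.3.4.1, cutadapt 1.9.1 and Trim Galore 0.4.2 were used; settings, duplicate handling and any control library are not given in the sources used. The summit fold enrichment, as deposited, is a ratio to local background. The deposited −log10 p-values and −log10 q-values were used as given, and the deposited score, a multiple of −log10 q, was not used.

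Each fold and p was solved for a pileup and a background (fold as pileup plus 1 over background plus 1, p from the Poisson tail). Pileups were whole, within 0.001 in −log10 p, for 99.98% of HSC, 100% of MPP replicate 1 and 99.99% of MPP replicate 2 peaks. The lists hold no read totals, so depth was read from the lowest background (0.604, 2.87 and 1.08 fragments). Exact Poisson and exact binomial (Clopper-Pearson) 95% intervals cover counting error only. With 1 HSC library, no test between groups was made.

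Gene positions came from RefSeq (GRCm38.p6, the mm10 assembly) without exons, so exon, intron and UTR were not assigned. Starts, strand and sequence came from a RefSeq promoter table that matched 71 of 89 genes. Values were given for every gene marked in HSC and for up to 4 per complex by the worse of the 2 MPP fold ranks; others by status or where a stated pattern needed them. Some gene names are not reported here, though their genes stay in the counts. The genes and lists were chosen with earlier results of these data known. One assembly factor, Coa1, was not matched by symbol. Scripts ran in Python 3.11.15 with numpy 2.4.6, pandas 2.3.3, scipy 1.17.1 and matplotlib 3.10.9, and were tested on simulated data. Alternatives were the window, a stricter q, MPP lists of equal length, summit or nearest-end placement, leaving out an MPP library, and 2 added after seeing the data.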

Additional observations from a re-analysis of the deposited data

How the results depend on the processing

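Of the recomputed counts of subunit genes, 45 stayed within 1.5 times the main count, 19 moved by more, and none changed direction, since each is a plain count. With a window of 5 kb, 16 genes were marked in all 3 libraries and 10 in none. At q of 1e-05 or below, 4 were marked in HSC, 1 in all 3 and 33 in none, with 1 summit inside a gene and 15 within 50 kb in HSC; the marked shares were then 4.49%, 52.8% and 44.9% in HSC, MPP replicate 1 and MPP replicate 2, beside 2.00%, 27.4% and 25.9% of all genes. With each MPP list held to the length of the HSC list, 19 were marked in each MPP library, 3 in all 3, 9 in both MPP libraries and not HSC, and 59 in none. Summits then lay inside 11 and 9 genes and within 50 kb of 45 and 51, in MPP replicates 1 and 2. With each peak given to the nearest gene end alone, 26 were marked in none, and the shares were 12.4%, 56.2% and 53.9%, beside 6.68%, 36.0% and 30.7%. Leaving out one MPP library put the unmarked genes at 25 to 32. Under these settings, the counts over several libraries, of summits inside genes and within 50 kb were not made over all genes. They describe the subunit genes alone. Under the window, q, list-length and placement settings the share of subunit genes was above that of all genes in each library. The 500 bp window, summit placement, and the alternatives added after seeing the data (without the 1% of peaks of highest fold, and the annotated start in place of both ends) moved no count past 1.5 times. No paired analysis was possible because there is 1 HSC library and no test was made. In HSC, depth bounds what could be called: the smallest pileup called stood at 8.28 times background.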

Other observations

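Some subunits of complexes I, III, IV and V are encoded by mitochondrial DNA and are outside the symbols used. The mitochondrial chromosome held 3 of 4047 HSC peaks, and 11 of 29848 and 13 of 19570 peaks in MPP replicates 1 and 2. These peaks entered no count of genes.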
